A study of Mus musculus with 24 samples.

Results

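Frizzled receptors are the 10 genes Fzd1 to Fzd10, all chosen by name and all found among the 35855 genes of the tables; 9 of them, all but Fzd9, passed the filter on low counts. Their RNA was measured in 24 libraries, each made from 1000 airway epithelial cells taken by sorting from the trachea of naive female wild-type C57BL/6 mice. The labels name 3 subsets with 8 libraries each: BCAM HI and BCAM LO (here BCAM high and BCAM low), which the series title places among basal epithelial cells, and DIFFERENTIATED EPCS (here differentiated). BCAM, the basal cell adhesion molecule, is a laminin receptor of the cell surface. In every subset 5 libraries carry batch number 1 and 3 carry batch number 2; the labels do not say what the number stands for, the age of the animals or whether libraries came from separate animals. The p-values therefore measure only the spread between these libraries, which may be technical.

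Frizzled proteins cross the membrane repeatedly and bind Wnt proteins through a cysteine-rich domain outside the cell. With the co-receptors Lrp5 and Lrp6 they recruit Dishevelled, which keeps beta-catenin from being degraded. With Vangl, Celsr and Prickle proteins they orient cells within an epithelial sheet, the process called planar polarity. Basal cells are the stem cells of the tracheal epithelium and give rise to its secretory and ciliated cells, and Wnt signals are known to act on their renewal and on ciliated cell formation.

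The stretch that Dishevelled binds is shown for 5 members. Fzd1, Fzd6, Fzd7 and Fzd10 carry results given below, and Fzd3 is the closest relative of Fzd6. Fzd8, which also carries results, is not shown. The stretch has the residues Lys-Thr-X-X-X-Trp, where X is any residue, and lies inside the cell after the last membrane span. Each line gives 30 coding bases, 5′ to 3′ on the gene's own strand, read from mouse build GRCm38 with GENCODE M21 gene models. Capitals mark the 18 bases that encode the motif.
Fzd1, chr5:4755700-4755729, minus strand: tccggcAAGACACTGAATTCCTGGaggaag
Fzd7, chr1:59484601-59484630, plus strand: tcgggcAAGACCCTGCAGTCATGGcgtcgc
Fzd10, chr5:128602790-128602819, plus strand: acttccAAGACCCTGCAGTCCTGGcaacac
Fzd3, chr14:65212101-65212130, minus strand: agcaaaAAGACATGCTTTGAATGGgccagt
Fzd6, chr15:39033943-39033972, plus strand: agcaaaAAGACGTGCACAGAATGGgccggg

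Within the motif, Fzd7 and Fzd10 had 17 of 18 bases in common, Fzd1 and Fzd7 had 14, Fzd3 and Fzd6 had 14, and Fzd6 and Fzd10 had 8. Every one of the 10 proteins held the motif 1 time. It began 23 residues from the end in Fzd1, Fzd2 and Fzd7, 56 in Fzd10, 165 in Fzd3 and 212 in Fzd6, whose tail is the longest. Over whole proteins, Fzd2 and Fzd7 were 82.1% identical, Fzd1 and Fzd7 81.6%, Fzd1 and Fzd2 81.4%, Fzd5 and Fzd8 72.2%, Fzd9 and Fzd10 67.1% and Fzd3 and Fzd6 54.2%. At the RNA level the transcripts were distinct. Fzd1 and Fzd2, which had the most in common, shared 53 stretches of 31 bases, 1.27% of those in Fzd1 and 1.46% of those in Fzd2. Transcripts annotated on the opposite strand overlap exons of Fzd5 over 1233 bases and of Fzd6 over 152 bases. The library protocol does not mark strand, so reads from those stretches cannot be assigned to either strand.

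Estimated counts totalled 1824619 to 4440072 per library. CPM are counts relative to the scaled library total. Against unscaled totals, 3 counts, the limit that a count of 0 allows, corresponded to 0.678 to 1.65 CPM depending on the library. On the scaled totals used for all other CPM the limit can be higher. In differentiated 4, for example, 3 counts of Fzd9 were 1.67 CPM. Such limits cover counting error only, because the amplified reads carry no molecular identifiers. The 95% intervals of differences come from the fit and include the spread between libraries. Krt5, a basal keratin, set both BCAM groups apart from differentiated cells. It averaged 1672.5 ± 295 CPM (SD, n = 8) among BCAM high libraries, 929 ± 137 among BCAM low ones and 0.854 ± 1.22 among differentiated ones. Bcam RNA, whose protein the labels name, overlapped between the groups, with 509 ± 133, 376 ± 91.2 and 395 ± 328 CPM (n = 8 each). The differentiated libraries of batch 2 stood apart. Their 7 secretory markers summed to 13410.0 to 89552.4 CPM, against 290051.5 to 423950.1 in batch 1. Their 6 thyroid follicle markers, such as thyroglobulin, summed to 49434.0 to 116832.9 CPM, against 13795.7 to 25930.2 in batch 1 and at most 1283.7 in any BCAM library. Frizzled differences from the differentiated group that passed a test are therefore given in each batch as well.

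Fzd10 and Fzd8 set both BCAM groups apart from the differentiated cells. Fzd10, a close relative of Fzd9, was found in all 16 BCAM libraries and was close to absent from differentiated ones. Fzd8, a close relative of Fzd5, was present in all 24 libraries at a lower level in differentiated cells. No other Frizzled gene passed the test in either comparison with differentiated cells, and none passed between BCAM high and BCAM low.

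Fzd10 is a single-transcript gene on GRCm38 chromosome 5, bases 128600844 to 128604093, plus strand. In BCAM high libraries it ran from 2.88 to 12 CPM with a median of 5.94. In BCAM low libraries it ran from 1.14 to 6.15 CPM with a median of 3.66. In differentiated libraries it ran from 0 to 1.23 CPM with a median of 0. All 8 BCAM high libraries lay above the highest differentiated library, as did 7 of the 8 BCAM low libraries. The differentiated group held 5 Fzd10 counts in all, none in 5 of its 8 libraries and at most 3 in any, so the folds below rest on few counts. Without differentiated 8, the library with the most, the differences were 4.95 for BCAM high and 4.25 for BCAM low. Fzd10 was higher in BCAM high by 4.16 on the log2 scale (SE 0.59, adjusted p = 1.28e-06; edgeR's quasi-likelihood test with Benjamini-Hochberg adjustment, which holds for every adjusted p below). It was higher in BCAM low by 3.49 (SE 0.60, adjusted p = 4.1e-05). In batch 1 alone the differences were 4.10 and 3.83, and in batch 2 alone 4.29 and 2.93; the last had an adjusted p of 0.0476. Bulk libraries cannot tell fewer cells of a type from less RNA per cell.

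Fzd8 ran from 3.58 to 13 CPM (median 6.72) in BCAM high libraries. BCAM low libraries held 2.78 to 10.3 CPM (median 6.07), and differentiated ones 0.555 to 4.37 (median 2.20). The groups overlapped: 7 of 8 BCAM high and 6 of 8 BCAM low libraries lay above the highest differentiated library. The fitted difference was 1.85 for BCAM high (SE 0.39, adjusted p = 0.00033) and 1.57 for BCAM low (SE 0.40, adjusted p = 0.00288). It was 1.82 and 1.78 in batch 1 alone and 1.89 and 1.15 in batch 2 alone, where the difference for BCAM low did not pass (adjusted p = 0.25). All 9 basal markers also passed as higher in both BCAM groups, where 19.4% and 16.3% of all tested genes did. They summed to 5866.5 to 8364.5 CPM per BCAM high library, 5412.5 to 6070.4 per BCAM low library and 261 to 2594.7 per differentiated library, where Dlk2 was at 0 in batch 1 and Krt14 at 0 in batch 2. The differentiated sums were 2070.9 to 2594.7 CPM in batch 1, where Krt15 alone averaged 2083.9, and 261 to 1017.6 in batch 2. The receptors did not fall with them. Fzd8 averaged 1.99 and 2.29 CPM in these batches, and Fzd10 0.221 and 0.411. The part of the basal marker shift in the result was not tested.

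The 2 calls among 9 tested Frizzled genes stood against a background of 41.3% of 12211 tested genes called between BCAM high and differentiated cells, with 19.4% called higher in BCAM high. Between BCAM low and differentiated cells it was also 2 of 9, against 33.5% called and 16.3% called higher in BCAM low. The median log2 difference of the 9 genes was -0.07 and -0.04, beside 0.02 over all tested genes in each comparison. Each count, 2 of 9 and all higher, lay below the share called in either direction and a little above the share called higher. Fzd10 and Fzd8 passed the filter on low counts only through BCAM libraries, since differentiated ones held at most 3 and 8 counts of them. The counts of 2 of 9 therefore lend no support to a direction for the family. On the scale of TPM (transcript abundance per length), with 0.1 added before the log, all genes shifted by a median of 0.75 for BCAM high and 0.48 for BCAM low. On that scale 88.6% and 87.3% of calls were higher in the BCAM group, against 46.8% and 48.8% in the count fit. Fzd8 was then higher by 2.23 and 1.77 and Fzd10 by 3.91 and 3, all 4 beyond the shift. Both BCAM groups were compared with the same differentiated libraries.

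**Figure D1:**
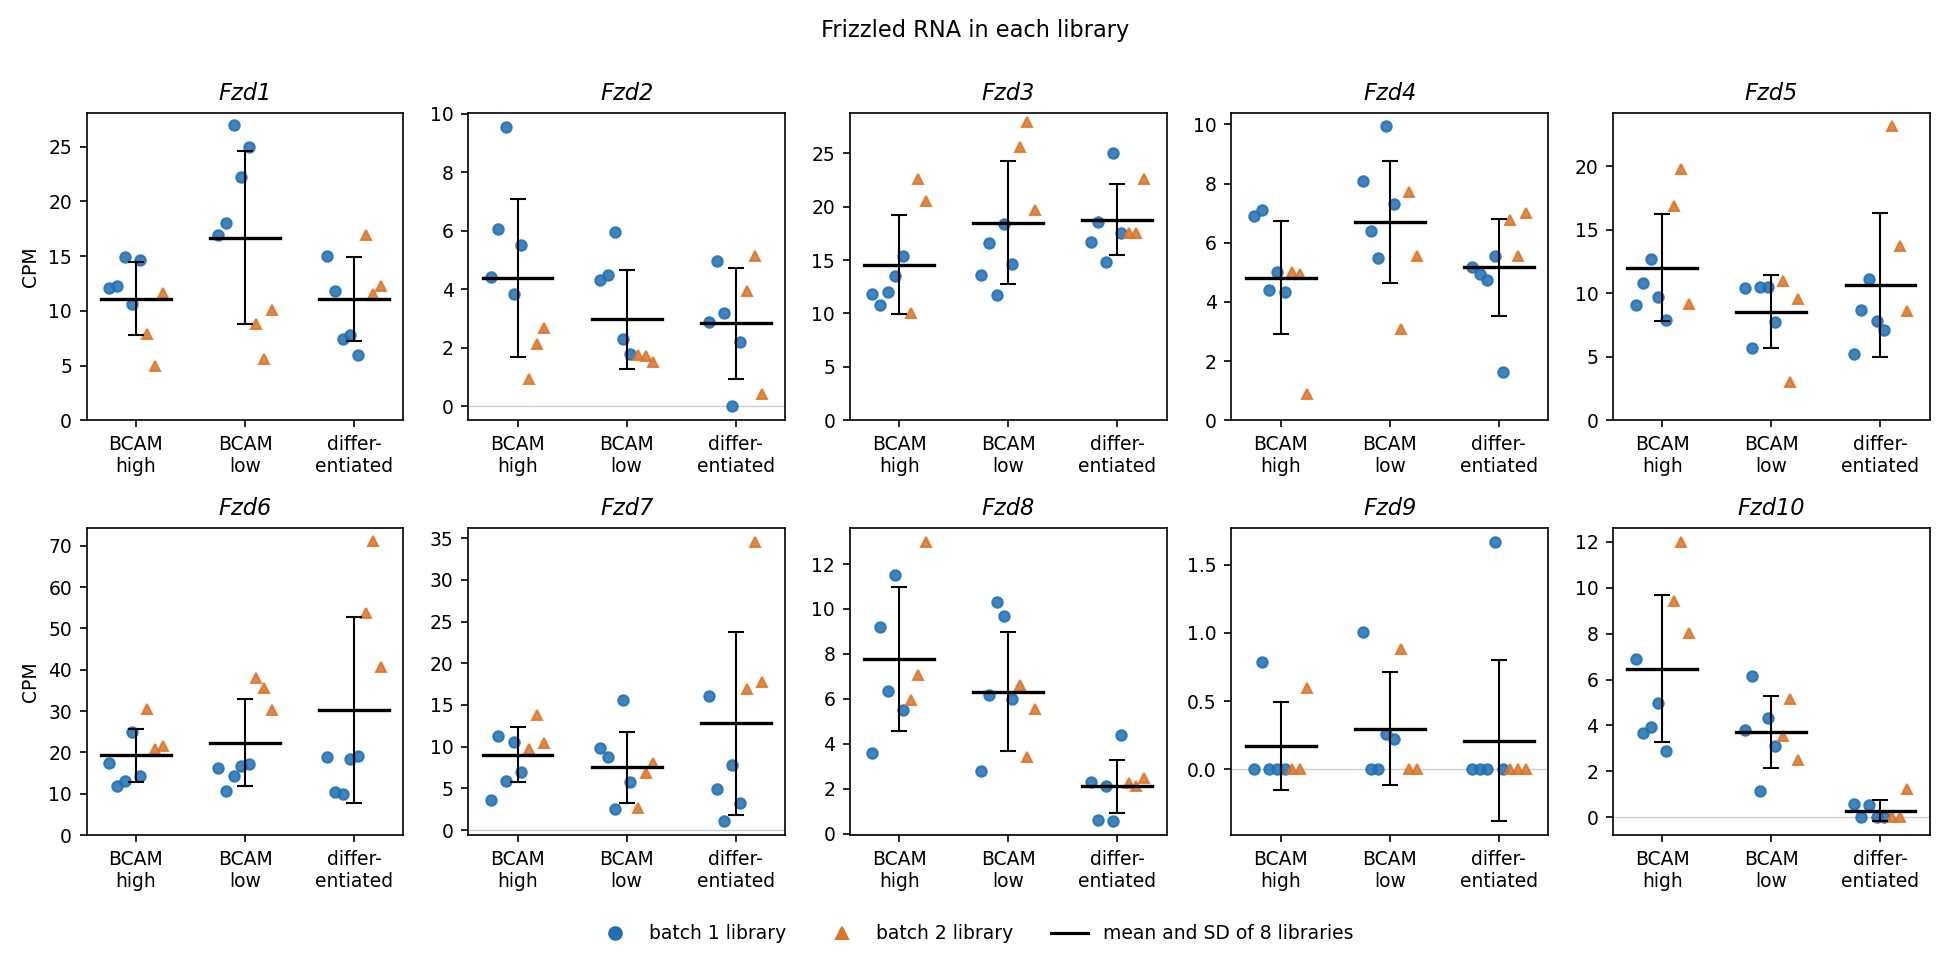
Frizzled RNA in CPM (vertical axis, its own range for each gene) in the 24 libraries, grouped by subset. Circles are batch 1 and triangles batch 2 libraries, and bars give the mean and SD of 8 libraries; Fzd10 stayed at or below 1.23 CPM in differentiated libraries, while batch 2 differentiated libraries lay highest for Fzd6 and Fzd7.

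Between BCAM high and BCAM low, 0 of 9 Frizzled genes passed, against 7.02% of all tested genes. At an unadjusted p under 0.05 the count was 1 of 9, Fzd1, beside 2537 of all 12211 tested genes. The DESeq2 Wald test and limma on TPM values also called 0. Fzd1, which acts in the beta-catenin branch, differed by -0.55 (SE 0.26, 95% interval -1.10 to -0.01, adjusted p = 0.228). Fzd10 differed by 0.67 (SE 0.42, 95% interval -0.19 to 1.52, adjusted p = 0.386), with 4 of 8 BCAM high libraries above the highest BCAM low library. Both differences varied by batch, and neither passed in a batch alone. Fzd1 differed by -0.75 in batch 1 alone and -0.00 in batch 2 alone, and Fzd10 by 0.27 and 1.37. The interval of Fzd6 ran from -0.54 to 0.33, that of Fzd8 from -0.43 to 1.00 and that of Fzd2 from -0.45 to 1.47. Differences within such bounds were not resolved by these libraries.

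**Figure D2:**
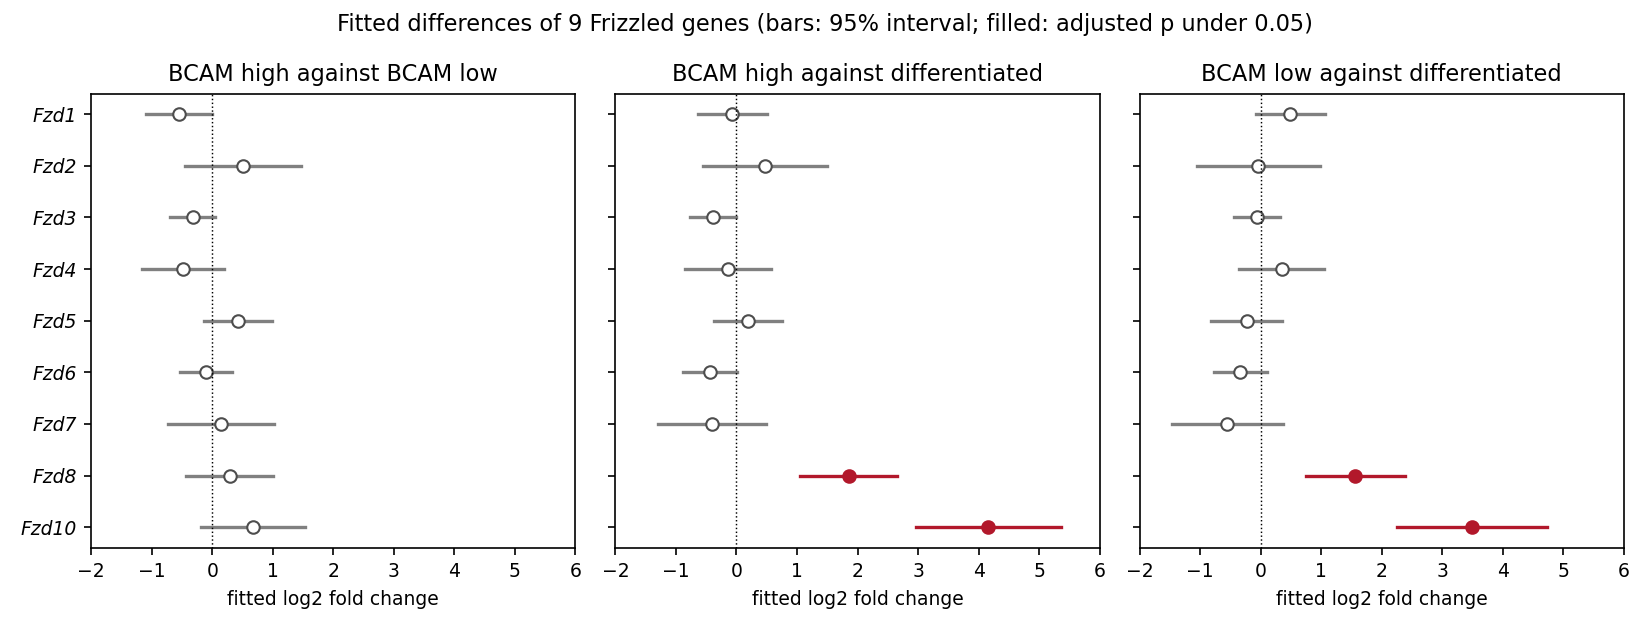
Fitted log2 fold change (horizontal axis) of the 9 tested Frizzled genes in the 3 comparisons, positive where the first group was higher. Bars are 95% intervals and filled points passed an adjusted p of 0.05, which only Fzd8 and Fzd10 did, in both comparisons with differentiated cells.

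Fzd6, a receptor of the planar polarity branch, had the highest mean TPM of the family in all 3 groups, though not beyond its spread over libraries from the next member. It was also highest in each batch, except that Fzd1 (5.11) lay above Fzd6 (4.52) in batch 1 of BCAM low. It lies on GRCm38 chromosome 15, bases 39006034 to 39038188, plus strand, and 94.0% of its counts fell on 1 coding transcript. BCAM high libraries averaged 5.87 ± 2.50 TPM, BCAM low ones 5.98 ± 2.19 and differentiated ones 6.76 ± 6.66 (SD, n = 8 each). The main coding transcript alone averaged 5.46, 5.06 and 5.01 TPM in that order. In differentiated cells transcripts of 647 and 458 bases averaged 0.633 and 0.657 TPM. They held 0.723% and 0.770% of the Fzd6 counts over all libraries. In TPM the main transcript alone was thus not higher in differentiated cells. Fzd6 TPM there averaged 2.88 in batch 1 and 13.2 in batch 2. In CPM, Fzd6 averaged 19.3, 22.4 and 30.3 in BCAM high, BCAM low and differentiated cells. Over both batches the next gene after Fzd6 was Fzd1 in both BCAM groups, at 2.95 ± 0.747 and 3.94 ± 1.77 TPM. In differentiated cells it was Fzd3, at 2.28 TPM. These places differed by batch. In batch 2 Fzd10 (3.88), Fzd7 (3.16) and Fzd5 (2.81) lay above Fzd1 (2.43) among BCAM high libraries, Fzd3 (3.29) above Fzd1 (1.98) among BCAM low ones, and Fzd7 (4.12) above Fzd3 (3.07) among differentiated ones.

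In BCAM high the order by mean TPM over both batches went on with Fzd10 (2.39), Fzd7 (2.29), Fzd5 (2.23), Fzd3 (2.17), Fzd8 (1.46), Fzd2 (1.31), Fzd4 (0.794) and Fzd9 (0.0858). Neighbours in that order did not differ beyond their spread over libraries, apart from Fzd4 and Fzd9. In BCAM low it went on with Fzd3 (2.69), Fzd7 (1.68), Fzd5 (1.32), Fzd10 (1.16), Fzd8 (1.03), Fzd4 (0.998), Fzd2 (0.811) and Fzd9 (0.128), with only Fzd2 and Fzd9 apart. In differentiated cells Fzd7 (2.12), Fzd1 (1.81), Fzd5 (1.31), Fzd4 (0.526), Fzd2 (0.520), Fzd8 (0.236), Fzd10 (0.0683) and Fzd9 (0.0631) followed; in batch 1 Fzd1 (1.40) lay above Fzd7 (0.920), and in batch 2 Fzd7 lay above Fzd1 (2.51). There Fzd5 stood apart from Fzd4, and Fzd8 from Fzd10. The place of Fzd3 rests on a noncoding transcript of 426 bases, which held 2.42% of its counts but 0.902 to 1.34 TPM on average per group; the coding transcript was at 1.27, 1.38 and 0.946 TPM in BCAM high, BCAM low and differentiated cells.

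Summed over the 10 genes, Frizzled TPM came to 21.6 ± 3.99 per BCAM high library, 19.7 ± 2.41 per BCAM low library and 15.7 ± 10.2 per differentiated library (SD, n = 8 each). With 0.1 added before the log, TPM of all tested genes shifted by medians of 0.75 for BCAM high and 0.48 for BCAM low. The sums alone therefore do not show less Frizzled RNA in differentiated cells. The differentiated group divided by batch, with 6.10 to 11.3 TPM in the 5 libraries of batch 1 and 21.1 to 35.9 in the 3 of batch 2. Fzd6, with its short transcripts included, made up 26.4%, 30.4% and 37.7% of the sum in the 3 groups in that order, as means over libraries. Fzd10 made up 10.6%, 5.76% and 0.429%.

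**Figure D3:**
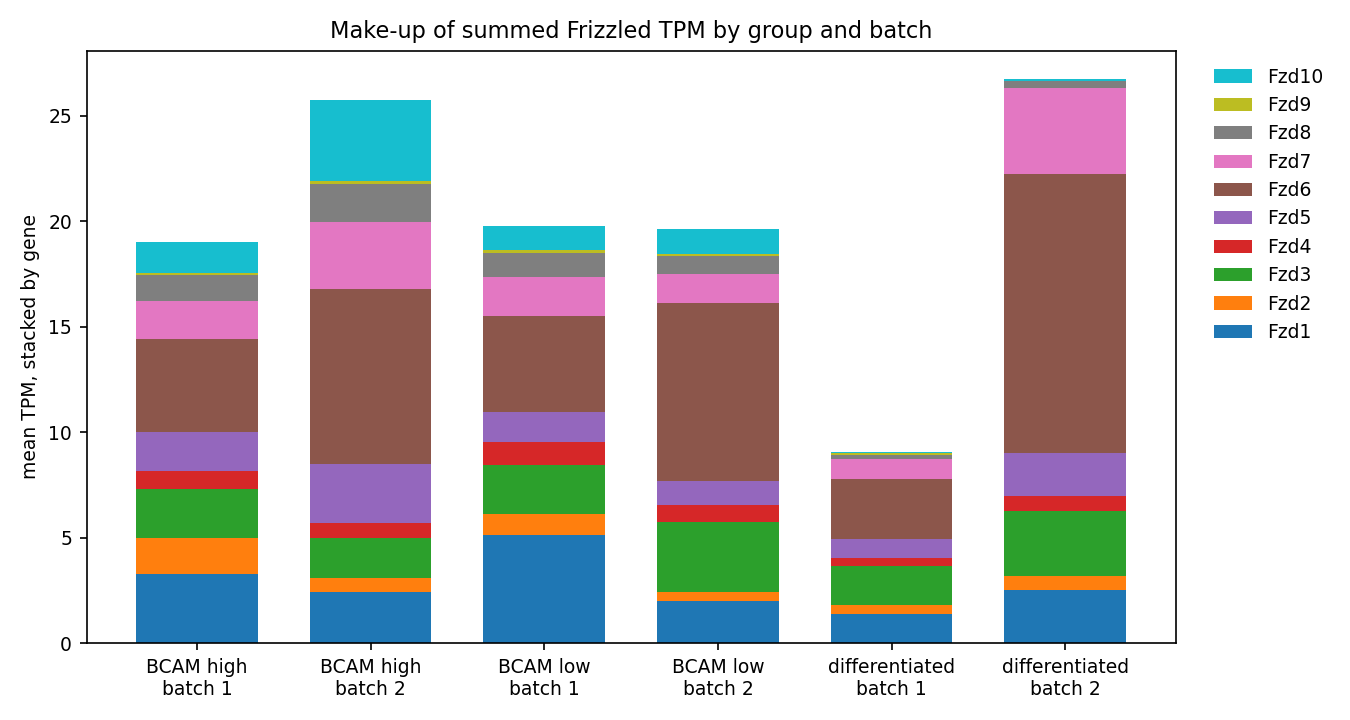
Mean TPM of each Frizzled gene (vertical axis, stacked from 0) by subset and batch, over 5 batch 1 or 3 batch 2 libraries. Bands sum all transcripts of a gene, and TPM of all tested genes were shifted toward the BCAM groups. The differentiated bars differ in height between batches, 9.05 and 26.8 TPM, with Fzd6 and Fzd7 the widest added bands, and Fzd10 is visible only in the BCAM groups.

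Fzd6, Fzd7 and Fzd1 differed between batches within a group. This comparison was added after the data were seen. Fzd6 was higher in batch 2 in 2 groups, Fzd7 in differentiated cells, and Fzd1 was lower in batch 2 in BCAM low. None of the 9 genes passed in BCAM high.

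In differentiated libraries Fzd6 ran from 10 to 19.1 CPM in batch 1 and from 40.7 to 71.2 in batch 2, with no overlap. The difference was 1.84 on the log2 scale (SE 0.27, adjusted p = 9.71e-06). In BCAM low Fzd6 averaged 15.0 CPM in batch 1 and 34.6 in batch 2, again with no overlap, a difference of 1.20 (SE 0.26, adjusted p = 0.00229). In BCAM high the means were 16.3 and 24.3 CPM, a difference of 0.59 (SE 0.26, adjusted p = 0.183). Fzd6 in BCAM high less differentiated cells was 0.07 in batch 1 alone (adjusted p = 0.872) and -1.20 in batch 2 alone (adjusted p = 0.00273). That dependence on batch passed its own test, at -1.25 (SE 0.38, adjusted p = 0.0351). It was lost on leaving out any 1 of 8 libraries: BCAM high 1, 4, 7 or 8, or differentiated 2, 3, 6 or 7. Over both batches Fzd6 differed by -0.44 (SE 0.22, adjusted p = 0.107), and passed without BCAM high 4 (-0.60, adjusted p = 0.0206) or without differentiated 3 (-0.54, adjusted p = 0.0446).

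Fzd7, a receptor of the same subfamily as Fzd1 and Fzd2, lies on GRCm38 chromosome 1, bases 59482424 to 59486955, plus strand. It averaged 6.64 ± 5.84 CPM in differentiated batch 1 (SD, n = 5) and 23.1 ± 9.96 in batch 2 (SD, n = 3), and all 3 batch 2 libraries lay above the 5 of batch 1. The difference was 1.80 (SE 0.54, adjusted p = 0.0167), and it did not pass without differentiated 7. In batch 2 the 3 differentiated libraries also lay above all 6 BCAM libraries. The difference of BCAM low from differentiated cells was -1.99 there (adjusted p = 0.00734) and 0.36 in batch 1 (adjusted p = 0.639). The test of that dependence gave -2.34 (SE 0.80, adjusted p = 0.0543).

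Fzd1 lies on GRCm38 chromosome 5, bases 4753839 to 4758035, minus strand. In BCAM low it averaged 21.8 ± 4.36 CPM in batch 1 (SD, n = 5) and 8.16 ± 2.33 in batch 2 (SD, n = 3), without overlap, a difference of -1.42 (SE 0.34, adjusted p = 0.0049). That call was lost without BCAM low 7. In batch 1 all 5 BCAM low libraries lay above all 5 BCAM high and all 5 differentiated libraries. In batch 2 all 3 differentiated libraries, with a mean of 13.6 CPM, lay above all 3 BCAM low libraries. BCAM low less differentiated was 1.19 in batch 1 alone (adjusted p = 0.000944) and -0.74 in batch 2 alone (adjusted p = 0.316). The dependence on batch was -1.92 (SE 0.47, adjusted p = 0.00603).

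The 2 dependences on batch, out of 27 pairs of gene and comparison, stood against backgrounds of 1.06% of tested genes for BCAM high with BCAM low, 8.69% for BCAM high with differentiated and 11.4% for BCAM low with differentiated cells. Between batches within a group, BCAM high had 0 of 9 Frizzled genes called beside 8.04% of tested genes, BCAM low 2 of 9 beside 11.1%, and the differentiated group 2 of 9 beside 20.1%. Other cell markers moved with batch in the same libraries. The thyroid and secretory sums of the differentiated group are given above. In BCAM low the 7 ciliated markers summed to 5.20 to 20.2 CPM in batch 1 and 165 to 278 in batch 2, with none of the 7 at 0 over either batch. Ciliated markers stayed at 5.38 to 11 CPM in BCAM high and ran from 103 to 173 in batch 1 and 173 to 556 in batch 2 of the differentiated group. Suprabasal and hillock markers (5 genes) summed to 2579.2 to 3055.5 CPM in batch 1 and 1464.3 to 1930.1 in batch 2 of BCAM low, and to 2298.5 to 3106.8 and 800 to 1560.3 in the differentiated group. In BCAM low, tuft markers (3 genes) summed to 9.94 to 62.7 CPM in batch 1 and 1.01 to 3.97 in batch 2. In the differentiated group, parathyroid markers (3 genes) reached 17780.9 CPM in batch 1 and 238 in batch 2, and neuroendocrine markers (5 genes) 11572.8 and 547. The part of these cell markers in the results for Fzd1, Fzd6 and Fzd7 was not tested.

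The remaining members passed the test in no comparison. Fzd3, a planar polarity receptor, averaged 14.6 ± 4.64, 18.5 ± 5.71 and 18.8 ± 3.36 CPM in BCAM high, BCAM low and differentiated cells (SD, n = 8 each). Its difference between BCAM high and differentiated cells was -0.39 (SE 0.19, adjusted p = 0.0984). Fzd5 averaged 12 ± 4.24, 8.55 ± 2.87 and 10.7 ± 5.66 CPM. Fzd4, the receptor of Norrin as well as Wnts, averaged 4.82 ± 1.90, 6.70 ± 2.06 and 5.17 ± 1.64 CPM, and Fzd2 averaged 4.38 ± 2.70, 2.97 ± 1.69 and 2.83 ± 1.90. Adjusted p-values of Fzd2, Fzd4 and Fzd5 ran from 0.403 to 0.957 over the 3 comparisons. Fzd9 had too few counts to be tested: 5, 8 and 3 counts in the BCAM high, BCAM low and differentiated groups, with 6, 4 and 7 of 8 libraries at 0.

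For the 4 members with a mean of at least 10 CPM, the genes with the closest profile over the 24 libraries were sought among 9392 tested genes. Likeness was the root mean square difference of log2 CPM, each gene centred on its own mean. Closest to Fzd6 were Canx, a chaperone of the endoplasmic reticulum, at 0.35, and Rab3gap2 and Kpna1, both at 0.37, where the SD of Fzd6 itself was 0.71. Closest to Fzd1 (SD 0.58) were Ranbp3 at 0.42 and Syf2 and Suds3 at 0.43. Closest to Fzd3 (SD 0.37) were Cd164 at 0.28 and Mta3 and Lztfl1 at 0.29, and closest to Fzd5 (SD 0.53) were Dapk1 at 0.40, Zfand5 at 0.42 and Timm29 at 0.43. The distances from Fzd1, Fzd3 and Fzd5 were not far below each gene's own SD. Libraries shared depth and batch between genes.

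Among the Wnt ligands, 6 of 19 were tested. Against differentiated cells, 3 were higher and 1 lower in each BCAM group, where 41.3% and 33.5% of all tested genes were called in either direction for BCAM high and BCAM low. Wnt4, named beyond the rule to complete the count after its values were seen, averaged 84.8 ± 12.5, 87.3 ± 33.2 and 26.8 ± 17.3 CPM in the 3 groups (SD, n = 8 each; 15.5 in batch 1 and 45.6 in batch 2 of the differentiated group), higher by 1.70 (adjusted p = 5.13e-05) and 1.77 (adjusted p = 6.39e-05). Wnt9a was higher by 3.23 (adjusted p = 3.28e-07) and 2.13 (adjusted p = 0.000276). Wnt10a had 1085 counts over the BCAM high libraries, 615 over the BCAM low ones and 0 over all 8 differentiated ones. Against the 3 counts that 0 allows over that group, it was at least 196-fold higher in BCAM high and at least 115-fold higher in BCAM low. Wnt5a, the classic ligand outside the beta-catenin branch, was the 1 lower, at 1.03 ± 0.949, 1.91 ± 1.21 and 11.4 ± 4.18 CPM, with differences of -3.44 (adjusted p = 7.98e-06) and -2.53 (adjusted p = 0.00034). Between BCAM high and BCAM low, 7.02% of all tested genes were called. Of the ligands, Wnt9a (1.10, adjusted p = 0.0385) and Wnt10a (0.81, adjusted p = 0.045) were higher in BCAM high. Neither passed without the batch term or with transcript length offsets, and leaving out a library lost 1 or both calls for 14 of the 24 libraries.

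Of 5 tested co-receptors and other Wnt receptors, Ptk7, a planar polarity receptor, was higher in BCAM high by 2.00 (adjusted p = 1.28e-10) and in BCAM low by 1.58 (adjusted p = 1.87e-08) than in differentiated cells. For BCAM high and BCAM low, 41.3% and 33.5% of all tested genes were called, which also holds beside the turnover genes below. Lrp6 passed in BCAM low only by 0.44 (adjusted p = 0.0397); its 0.22 in BCAM high did not (adjusted p = 0.308), and the BCAM groups themselves differed by -0.22 (adjusted p = 0.466). The co-receptor count for BCAM low fell to 1 on leaving out any of 10 libraries. Of the 4 tested turnover genes, Znrf3, a ligase that removes Frizzled from the surface, was higher in BCAM high by 0.58 (adjusted p = 0.000301), and none passed in BCAM low. In batch 2 alone 2 turnover genes passed in each of these comparisons, beside 3429 and 2067 of all 12211 tested genes.

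All 4 tested secreted or surface inhibitors of 16 listed were higher in both BCAM groups than in differentiated cells, where 19.4% and 16.3% of all tested genes were called higher. This does not hold for every untested inhibitor. Sfrp2 averaged 0.541, 0.459 and 8.60 CPM in BCAM high, BCAM low and differentiated cells, and Sostdc1 averaged 1.18, 1.71 and 7.84. Untested Wif1 went the other way, at 2.14, 6.71 and 1.11 CPM. Sfrp1, which binds Wnts through a domain like that of Frizzled, averaged 29.7 ± 16.5, 22.6 ± 8.53 and 1.31 ± 1.35 CPM, differences of 4.43 (adjusted p = 2.41e-10) and 4.11 (adjusted p = 2.33e-09). Dkk3 was higher by 2.54 and 2.02 (adjusted p = 4.61e-06 and 0.000121). Kremen1 was higher by 1.14 and 1.01, and Apcdd1 by 0.97 and 1.14. Their medians were 1.84 and 1.58, beside 0.02 for all tested genes.

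Inside the cell, 5 of 15 tested pathway genes were higher in BCAM high and 4 in BCAM low than in differentiated cells, and none was lower. Among all tested genes 41.3% and 33.5% were called, and 19.4% and 16.3% were called higher. In batch 1 alone the count for BCAM high was 3. The transcription factor Tcf7l2 was higher by 1.18 (adjusted p = 2.46e-10) and 1.00 (adjusted p = 1.06e-08), and its relative Tcf7l1 by 0.61 and 0.84. Gsk3b, the kinase that marks beta-catenin for degradation, was higher in BCAM high by 0.53 (adjusted p = 0.000282). Ctnnb1, which encodes beta-catenin, was higher in BCAM low by 0.67 (adjusted p = 0.00061), with 329 CPM in batch 1 and 131 in batch 2 of the differentiated group. The list medians were 0.28 and 0.21, beside 0.02 for all tested genes.

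Of 10 tested planar polarity genes, 5 were higher in BCAM high and 4 in BCAM low than in differentiated cells, and none was lower, beside the same shares of all tested genes. Untested Prickle1 averaged 0.783, 0.397 and 3.76 CPM in BCAM high, BCAM low and differentiated cells. Prickle2, also untested, averaged 0.973, 1.15 and 2.72 CPM, and untested Celsr3 1.01, 0.824 and 0.873. In batch 2 alone the count for BCAM low was 1. Vangl2, a core membrane component, was higher by 1.25 (adjusted p = 0.00238) and 1.43 (adjusted p = 0.000943). Ankrd6 was higher by 1.19 and 1.11, and Celsr2 by 0.99 and 0.91, with 26.3 CPM in batch 1 and 55.2 in batch 2 of the differentiated group. Of the 4 tested feedback targets, which are genes that Wnt signals switch on, Nkd1 and Nkd2 were lower in both BCAM groups. For BCAM high and BCAM low, 41.3% and 33.5% of all tested genes were called, and 22% and 17.1% were called lower. Nkd1, an inhibitor that binds Dishevelled, averaged 0.970 ± 1.01, 0.580 ± 0.596 and 20.8 ± 19.4 CPM, with 8.38 in batch 1 and 41.5 in batch 2 of the differentiated group. Its differences were -4.29 (adjusted p = 3.97e-07) and -4.57 (adjusted p = 5.31e-07). Nkd2 differed by -2.51 and -2.62. The other two targets passed as higher in BCAM high, with Myc higher by 1.25 (adjusted p = 0.00481), with 23.8 CPM in batch 1 and 54.3 in batch 2 of the differentiated group. In batch 2 alone 2 of the 4 targets passed for BCAM high, beside 3429 of all 12211 tested genes. Of the untested targets, Axin2 averaged 0.546, 0.672 and 0.598 CPM in BCAM high, BCAM low and differentiated cells. Lef1 averaged 1.24, 0.833 and 0.364 CPM, Tcf7 1.08, 0.756 and 0.609, and Sp5 0, 0.161 and 0. The thyroid marker sums given above rose between the same batches of the differentiated group as Nkd1; their part in the result was not tested.

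**Figure D4:**
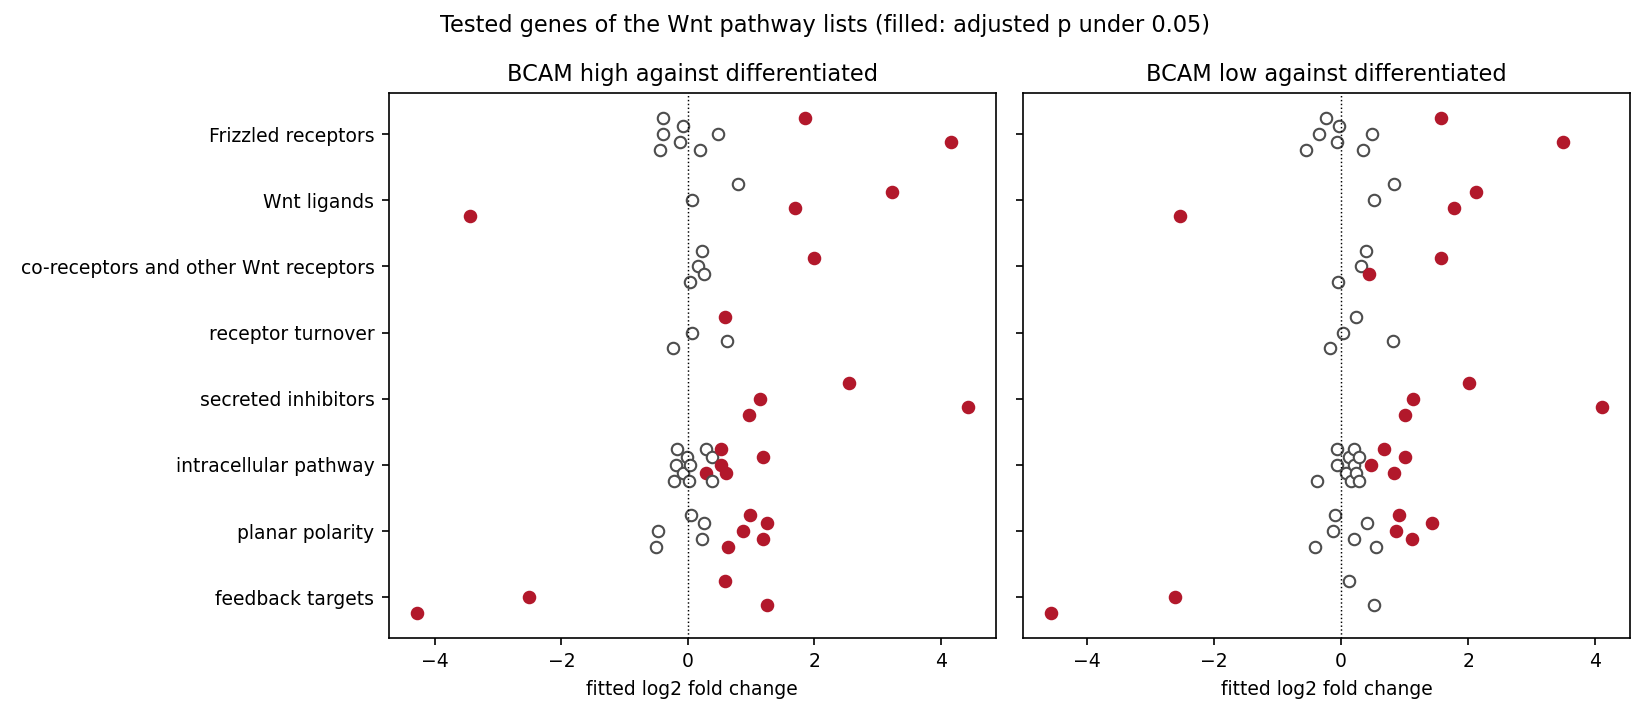
Fitted log2 fold change (horizontal axis) of tested genes in each Wnt pathway list, for BCAM high and BCAM low against differentiated cells; filled points passed an adjusted p of 0.05. Wnt10a is left out because the differentiated group had 0 counts; all 4 secreted inhibitors are filled on the right, and 2 of 9 Frizzled receptors are filled.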

How the data were processed

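The authors deposited a table per library with an estimated count and a TPM for each of 117497 transcripts, per the file headers; the submitters' processing notes name kallisto 46.1, Picard and GRCm39. Per the labels' protocols, SmartSeq2 libraries were read as pairs of 38 bases per end. The estimated counts carry no normalization, and the deposited TPM values are scaled to length and library. Transcripts were matched without version to GENCODE M21 (GRCm38; 1123 did not match), summed per gene and rounded. The printed coordinates are those of M21.

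Counts were tested with edgeR 4.0.16 (R 4.3.3; quasi-likelihood, robust, TMM, default low-count filter) over 24 libraries with batch as covariate. The p-values were adjusted by the Benjamini-Hochberg method over 12211 genes, with calls under 0.05. CPM are counts relative to TMM-scaled totals. Dependence on batch was tested in a fit with a separate mean for each combination of group and batch. The main test and 4 alternatives were first tested on simulated data. Alternatives used DESeq2 1.42.0, limma 3.58.1, other filters, covariates and left-out libraries. Named were the 10 members, the 3 closest profiles of each member at 10 CPM or more, and up to 3 called genes with the largest change per list and comparison, plus Wnt4. Members and lists were chosen with earlier results of these data known.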

Additional observations from a re-analysis of the deposited data

Results flagged for a closer look

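Libraries that stood far from the other 7 of their group were sought in 30 sets of 8 values. The cut used marks about 1 in 20 sets of normally distributed values by chance. These sets pool 2 batches, and 7 of 8 differentiated libraries were at 0 for Fzd9 and 5 of 8 for Fzd10. That rate may therefore not hold for them. The 5 found were Fzd4 at 0.889 CPM in BCAM high 8, Fzd4 at 1.64 CPM in differentiated 5, Fzd5 at 23.2 CPM in differentiated 6, Fzd9 at 1.67 CPM in differentiated 4 and Fzd10 at 1.23 CPM in differentiated 8. The Fzd9 and Fzd10 values each rest on at most 3 counts.

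Fzd6 in BCAM high against differentiated cells and Fzd1 in BCAM low against differentiated cells differed between the batches, by -1.25 (adjusted p = 0.0351, edgeR) and -1.92 (adjusted p = 0.00603, edgeR) on the log2 scale.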

How the results depend on the processing

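Fzd8 and Fzd10 stayed called against differentiated cells on leaving out each of 24 libraries and under 11 other settings, except Fzd8 in BCAM low in batch 2 alone (1.15). Counts of Frizzled genes called on leaving out a library were 0 between BCAM groups, 2 to 3 for BCAM high and 2 for BCAM low against differentiated cells; dependences on batch were 1 to 3, and calls between batches within a group 3 to 5 around 4. Limma on log2(TPM + 0.1) and on log2(TPM + 1) both called 4 genes in BCAM high against differentiated cells, adding Fzd2 and Fzd5, and 3 in BCAM low, adding Fzd1 (adjusted p = 0.0158 and 0.0117); in that order 75.8% and 78.2% of all calls between BCAM groups were higher in BCAM high, against 34.7%. Signs of uncalled genes turned as follows; beyond the fewer libraries of a single batch and the shift of TPM values, the cause was not tested. With TPM + 0.1, in BCAM high against differentiated cells: Fzd1 0.73, Fzd3 0.02, Fzd4 0.49, Fzd6 0.17 and Fzd7 0.65; in BCAM low: Fzd2 0.77, Fzd3 0.29, Fzd5 0.16, Fzd6 0.23 and Fzd7 0.12. With TPM + 1, in BCAM high: Fzd1 0.51, Fzd4 0.23, Fzd6 0.10 and Fzd7 0.28; in BCAM low: Fzd2 0.26, Fzd3 0.18, Fzd5 0.06 and Fzd6 0.15. In batch 1 alone, between BCAM groups: Fzd6 0.11 and Fzd7 -0.14; BCAM high against differentiated: Fzd1 0.44, Fzd4 0.33, Fzd6 0.07 and Fzd7 0.21; BCAM low: Fzd2 0.52, Fzd5 0.17 and Fzd7 0.36. In batch 2 alone, BCAM high: Fzd2 -0.71; BCAM low: Fzd1 -0.74, Fzd3 0.33 and Fzd4 -0.25. Fzd1 in BCAM high turned to 0.02 with no filter and 0.01 with no batch term. Fzd2 in BCAM low turned to 0.00 with no filter, 0.11 with no batch term, 0.04 with length offsets, 0.02 with only the 2 groups and 0.05 with the replicate block. Leaving out a library moved Fzd1 in BCAM high between -0.19 and 0.09, Fzd4 between -0.29 and 0.03, Fzd2 in BCAM low between -0.28 and 0.29, Fzd3 between -0.12 and 0.04, and Fzd7 between BCAM groups from -0.03 to 0.44. The replicate block called 0, 2 and 2 Frizzled genes and 864, 5129 and 4136 genes in all, against 857, 5044 and 4086. The main test did not pair libraries by number, since the labels do not say whether equal numbers mark the same animal. The correlations do not settle this. They were low (0.0315 to 0.176), with 7 of 24 pairs over 0.1. As a hint from the data, not the design, 23 of 24 correlated best with their own number. Members at a few CPM, such as Fzd2, Fzd4 and Fzd10 in differentiated cells, rest on few counts.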
